A study of Homo sapiens with 6 samples.

Results

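The long peak-free intervals of the DAMI genome are stretches of at least 400 kb between neighbouring peaks of accessible chromatin in which neither of the 2 deposited peak lists held a peak. They were selected on the measured peak positions themselves. All peaks of both lists on chromosomes 1 to 22 were merged, and the spaces between neighbouring merged peaks were measured on hg19. Of 257 spaces of at least 400 kb, 25 that touch a centromeric band and 1 on 9p21 were left out, which gave 231 intervals of 135832 usable spaces between merged peaks, or 0.17%. The number, length and place of the intervals are therefore a description of the peaks that chose them, with no test. Assembly gaps outside the centromeric bands were not checked here. Of the 231 intervals, 23 lie within 5 Mb of a centromeric band and 4 touch bands of variable heterochromatin.

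The assay was ATAC-seq, which uses the transposase Tn5 to put adapters into DNA that nucleosomes leave uncovered. DAMI is an established human leukaemia line, labelled MPN/AML, and the title of the series concerns HMGA1 in myeloproliferative neoplasms. All 6 samples were DAMI cells carrying a lentivirus: 3 a control virus, and 3 a virus with a short hairpin RNA against HMGA1, written shHMGA1 below. The lists hold 1 set of peaks per group and no value per sample, so no difference between the lists has a replicate check and none is given a p-value. A second line named in the series text, SET-2, was not analysed here, and whether it entered the lists is not stated. The level of HMGA1 and the markers of the cell type were not checked here.

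Large parts of a cell's genome are packed in closed chromatin, often attached to the nuclear lamina, and these stretches tend to stain dark with Giemsa, to be AT-rich and to replicate late. They hold few genes, many of them very long genes of neurons or other specialised tissues that are silent in blood cells. HMGA1 is a small architectural protein whose AT-hooks bind the minor groove of AT-rich DNA.

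The 231 intervals summed to 140.9 Mb, or 4.89% of the 2881 Mb of chromosomes 1 to 22. Neighbouring merged peaks were separated by a median of 5904 bp and a mean of 18.9 kb over all usable spaces. The shortest interval was 400.258 kb long, the median was 518 kb, the quartiles were 444 and 672 kb, and the longest was 1.74 Mb. By length, 110 intervals were of 400 to 500 kb, 41 of 500 to 600 kb, 39 of 600 to 800 kb, 22 of 800 to 1000 kb and 19 of 1 Mb or more. The minimum of 400 kb does not mark a break in the lengths. The 3 intervals just inside it measured 400.258, 402.414 and 403.082 kb, the 3 just outside measured 399.526, 399.521 and 397.341 kb, and 238 more spaces lay between 300 and 400 kb.

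**Figure D1:**
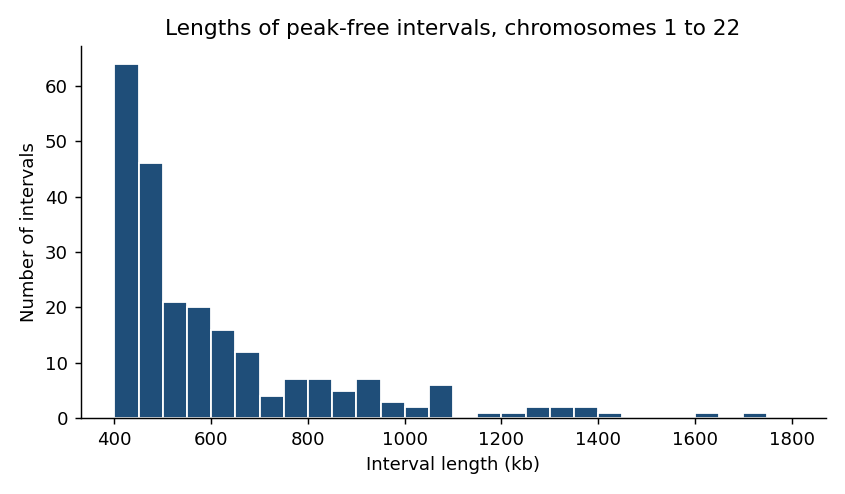
Number of intervals (vertical axis) by length in kb (horizontal axis, classes of 50 kb) for the 231 intervals. The numbers fall off from the minimum of 400 kb, and 19 intervals reach 1 Mb.

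Chromosomes 16, 20, 22, 10 and 17 held the largest shares of peak-free length. On chromosome 16, 23 intervals covered 20.03% of the chromosome, and on chromosome 20, 18 intervals covered 17.7%. Chromosome 22 had 13.8% of its length in 10 intervals, chromosome 10 had 10.2% in 25, and chromosome 17 had 8.93% in 11. These 5 chromosomes held 87 intervals and 40.8% of all interval length, but make up 14.6% of chromosomes 1 to 22. At the other end, chromosome 21 held none, chromosome 13 held 1 interval (0.754% of its length), chromosome 2 held 5 (0.999%), chromosome 6 held 4 (1.11%) and chromosome 4 held 6 (1.60%). Of 39 chromosome arms longer than 10 Mb, 21q and 2p had no interval.

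The share of a chromosome in intervals went with how far apart its peaks lie. Chromosomes 16, 20 and 22 had 21.5, 24.7 and 15.9 merged peaks per Mb, against 47.6 over chromosomes 1 to 22, and chromosomes 4, 21 and 9 had 106.9, 83.3 and 80.8. The low value of chromosome 22 is over its whole length, and all of its 817 merged peaks lay on 22q. By arm, 22q had 24.5 per Mb, 16p 24.9, 16q 25.1, 20p 22.9 and 20q 28.9. Over the 22 chromosomes, Spearman's rho between the density of merged peaks and the share of length in intervals was -0.84, and over the 39 arms it was -0.81. Both measures come from the same peaks and are linked by construction, so these values are descriptions. The share of a chromosome in dark bands (Giemsa classes 50, 75 and 100) ran much less with the peak-free share, with a rho of -0.27 over the 22 chromosomes. With a minimum scaled to the mean peak spacing of each chromosome, 244 intervals were found, and their order over chromosomes was another one. Chromosome 9 then came first, with 52 intervals over 13.96% of its length (minimum 236 kb). Chromosome 16 had 8 intervals over 10.66% (minimum 883 kb) and chromosome 4 had 75 over 10.04% (minimum 178 kb). Chromosome 20 had 4 over 6.42% and chromosome 22 had 1 over 2.66%. The low minimums of chromosomes 9 and 4 come from the mean spacing of the whole chromosome, which a dense arm lowers. Arm 9p had 186.9 and arm 4q 131.6 merged peaks per Mb, against 47.6 over chromosomes 1 to 22. The scaled order therefore also depends on how unevenly peaks lie within a chromosome, and it was not tested without these arms. The order of chromosomes under a single minimum of 400 kb largely followed peak density, with the rho of -0.84 given above.

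**Figure D2:**
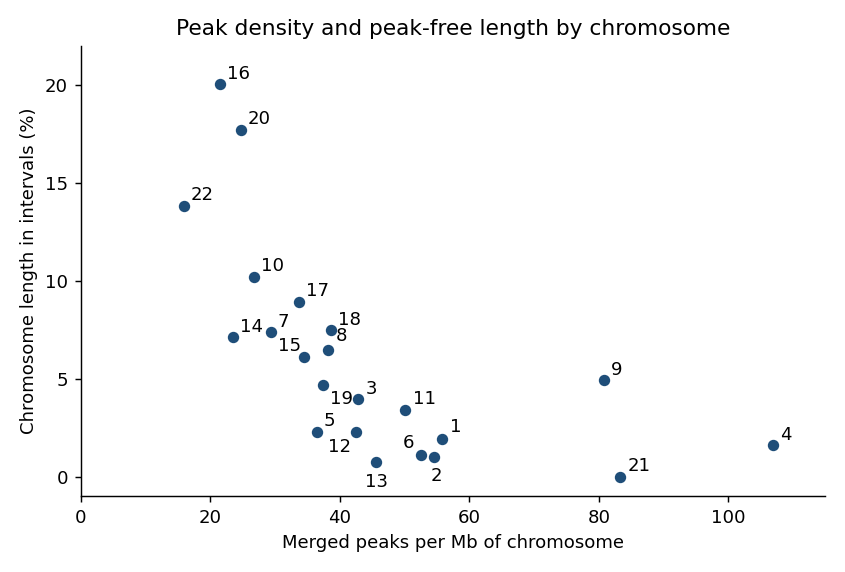
Share of chromosome length in intervals (%, vertical axis) against merged peaks per Mb (horizontal axis), 1 point for each of the 22 chromosomes, labelled by number. Chromosomes 16, 20 and 22 sit at the upper left, and chromosomes 4, 9 and 21 at the right. Chromosome 4 has 1.60% of its length in intervals and chromosome 21 has none. Chromosome 9 has 4.92%, close to the 4.89% of chromosomes 1 to 22.

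The intervals covered a larger share of the length of bands of middle Giemsa stain than of the darkest ones. Giemsa staining grades bands from negative, which are gene-rich and GC-rich, to class 100, the darkest. Intervals covered 4.19% of the length of negative bands, 4.62% of class 25, 9.38% of class 50, 6.59% of class 75 and 3.49% of class 100. Giemsa-positive bands of all classes held 61.9% of interval length, against 51.8% of chromosomes 1 to 22 outside centromeric bands. Of the single classes, negative bands held the most interval length, 36.3%, but make up 43.9% of that part of the genome. Class 50 bands held 25.6% and make up 13.8%. Among 18 chromosomes with at least 5 intervals, the positive share of interval length was above that of the chromosome in 14. As a class, the class 100 bands were not poor in peaks, with 61.2 merged peaks per Mb, while class 50 bands had the fewest of the 5 classes, 36.2 per Mb. Very dense class 100 bands on distal 4q raised the class 100 value: 4q32.1, 4q32.3 and 4q34.3 had 415, 421 and 424 per Mb. Other class 100 bands were sparse, such as 16q21 with 15.7 per Mb. The class density without the dense bands was not computed. With the minimum scaled to each chromosome, class 50 was again first at 7.39%, but class 25 (5.68%) then came before class 75 (5.13%). The ends of chromosomes were also represented: 26.8% of interval length lay within 10 Mb of a chromosome end, a zone that makes up 13.5% of chromosomes 1 to 22, and 58 intervals touched it. The 13.5% is not weighted to the chromosomes that hold the intervals. Chromosomes 16, 20 and 22, with the largest shares in intervals, are short (90.4, 63.0 and 51.3 Mb), so end zones make up more of them.

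**Figure D3:**
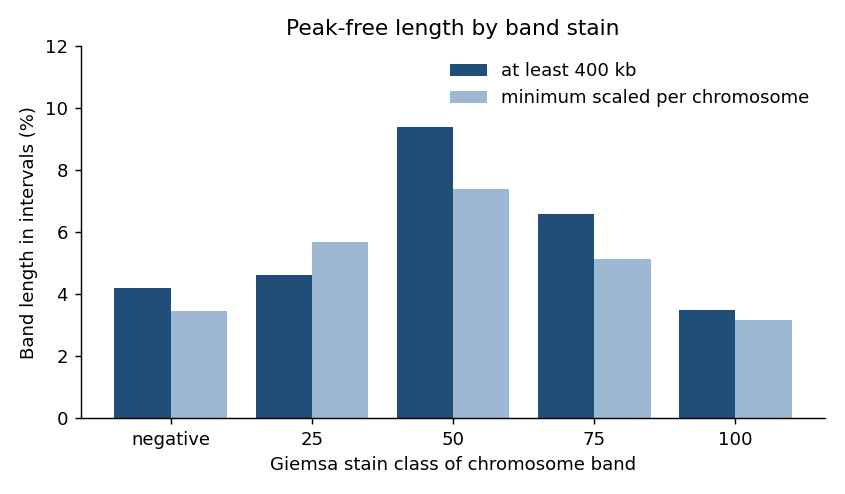
Share of band length in intervals (%, vertical axis) by Giemsa class (horizontal axis), for intervals of at least 400 kb (dark bars) and for a minimum scaled to each chromosome's peak spacing (light bars). Class 50 has the tallest bar under both minimums, at 9.38% and 7.39%.

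The longest interval ran over 7p22.2 and 7p22.1 (chr7:2910505-4650521, 1740 kb) and took up 93.5% of 7p22.2. These bands stain weakly or not at all with Giemsa. Its flanks, the 100 kb on either side, held 11 control and 9 shHMGA1 peaks. As background, SDK1, which encodes an adhesion molecule of neurons, maps to 7p22.2. Next came 16p12.1 (chr16:25488308-27121067, 1633 kb), with 6 control and 5 shHMGA1 peaks in its flanks, the band of HS3ST4, a heparan sulphate sulphotransferase. The third was on 16p13.3 (chr16:5666405-7075703, 1409 kb), the band of the neuronal splicing factor RBFOX1, and only 2 control peaks and 1 shHMGA1 peak lay in its flanks.

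On 10q26.3 (chr10:132294818-133672560), 1378 kb held no peak, with 6 control and 3 shHMGA1 peaks in the flanks. The interval on 22q12.3 (chr22:33445388-34810874, 1365 kb) had 3 control peaks and 1 shHMGA1 peak beside it. On 16q21 (chr16:59996662-61341680, 1345 kb) and 11p12 (chr11:41222989-42546063, 1323 kb) each flank held a single control and a single shHMGA1 peak. These are among the most isolated of the long intervals. The eighth, on 14q32.2 (chr14:98445000-99727357, 1282 kb), had 6 control and 4 shHMGA1 flank peaks and lies in the band of BCL11B, a transcription factor of T cells. The ninth, on 8q24.23 (chr8:136470171-137726450, 1256 kb), had 3 flank peaks in each list. The tenth crossed 9q21.31 and 9q21.32 (chr9:83624856-84862316, 1237 kb) and had 1 peak of each list in its flanks, bounded by a control-only peak on one side and an shHMGA1-only peak on the other. Of the 19 intervals of at least 1 Mb, 6 were on chromosome 16, 3 on chromosome 20 and 2 on chromosome 14, and chromosomes 7, 8, 9, 10, 11, 17, 19 and 22 had 1 each.

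Several bands were peak-free over most of their length. Of 767 bands, 181 (23.6%) were touched by an interval and 14 had at least 50% of their length in intervals. After 7p22.2, the highest shares were 83.7% of 7q22.2, 72.5% of 18p11.23, 70.0% of 20p11.22 and 66.9% of 7q11.22. In 7q11.22, 5 intervals together covered 3.48 Mb, and the whole band had 30 merged peaks, or 5.77 per Mb. The bands 20q13.2 (61.3%), 20q12 (60.4%), 17p12 (55.8%) and 16q21 (47.8%) each held 4 or 5 intervals. The intervals on 17q21.2 (678 kb) and 17p13.1 (970 and 467 kb) are in the bands of the type I keratins of epithelia and of the muscle myosin heavy chains. Of the intervals of 16q12.1, those of 758 and 1150 kb are in the band of SALL1, a kidney and limb transcription factor. The genes SDK1, HS3ST4, BCL11B, SALL1, the keratins and the myosins were chosen after the bands were seen.

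Which genes the intervals span could not be read from these files, because no gene annotation of hg19 was used here. Known long genes were therefore placed only to their chromosome band, from general knowledge, and their position within a band relative to an interval was not determined. Of 155 genes on 5 lists of long genes, most of them best known from neurons or other specialised tissues and some of them active in many cell types, 46 (29.7%) have a band touched by an interval. No expression was measured, so which of these genes are silent in DAMI cells is not known here. On a contrast list of 34 genes chosen for their roles in blood cells or many cell types, the count was 11 (32.4%). By band, intervals touched 37 of 137 bands of the long-gene lists (27.0%) and 11 of 35 of the contrast list (31.4%), beside 23.6% of all bands. By length, intervals made up 5.51% of the bands of the long-gene lists, 4.45% of those of the contrast list and 5.06% of all bands. At the resolution of bands, the shares of the long-gene lists as a whole were close to those of all bands and of the contrast list.

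For axon guidance genes, which steer growing nerve fibres, 12 of 16 had a touched band, in 8 of 13 bands (61.5%, beside 23.6% of all bands). EPHA3, which was planned for this list, is not among the 16. These bands are long, with a median of 5.6 Mb against 3.4 Mb for all bands, and 7.14% of their length lay in intervals, beside 5.06% of all bands and 8.67% for the cadherin list. Differences between the lists were not tested. Among these, ROBO1 and ROBO2, the receptors for SLIT ligands, share 3p12.3, where 2 intervals covered 15.4% of the band, and the ligand SLIT2 is on 4p15.31, where 2 intervals covered 29.4%. The semaphorin genes SEMA3A, SEMA3C, SEMA3D and SEMA3E share the single interval of 7q21.11 (448 kb, 5.03% of the band), so they are not separate observations. DCC, the netrin receptor, is on 18q21.2 with 1 interval of 620 kb, 11.1% of the band.

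Of the cadherins and protocadherins, which join cells by calcium-dependent adhesion, 5 of 21 had a touched band. CDH8 and CDH11 share 16q21, with 5 intervals and 4.45 Mb without a peak. The single interval of 16q23.3, the band of CDH13, measured 670 kb (26.8% of the band), and 3 intervals covered 20.5% of 10q21.1, the band of PCDH15. The neuronal adhesion list had 6 of 31 genes in touched bands, among them LRRC4C, a netrin-G ligand, on 11p12 (2 intervals, 24.4% of the band). Of receptors and ion channels, 7 of 38 had one. GRIN2A, a glutamate receptor subunit, is on 16p13.2, 50.8% of which lay in intervals.

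Among 49 other very long genes, 16 had a touched band. AUTS2, a neurodevelopmental gene, is on 7q11.22, and PTPRT, a receptor tyrosine phosphatase, spans 20q12 and 20q13.11, of which 57.6% lay in 4 intervals. RBFOX1 on 16p13.3 had 2 intervals of 1.90 Mb together in its band, MACROD2 on 20p12.1 had 2 (26.2% of the band) and CSMD3 on 8q23.3 had 3 (30.03%). The contrast list also had bands with long peak-free stretches: an interval of 820 kb in 9p24.3, the band of DOCK8, which acts in immune cells, and 3 intervals over 31.1% of 16q12.2, the band of FTO.

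For 109 of the 155 long genes the band held no interval. These include CNTNAP2 on 7q35 and 7q36.1, LRP1B on 2q22.1 and 2q22.2, DLG2 on 11q14.1 and PCDH9 on 13q21.32, which encode adhesion, scaffold or receptor proteins of neurons. The bands of these 4 genes had between 37.9 and 51.0 merged peaks per Mb. Over the distinct bands, the median density was 47.9 per Mb where a long gene's band had no interval and 22.4 where it had one, a difference that the choice of intervals builds in.

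The flanks of the intervals, 42.4 Mb in all and each base counted once, held 1131 control and 881 shHMGA1 peaks. That is 26.7 and 20.8 per Mb, below the 43.4 and 38.5 per Mb of chromosomes 1 to 22. When each chromosome's own density was weighted by the flank length on it, 35.2 and 31.1 per Mb were obtained. Each side is bounded by at least 1 merged peak by the rule. Among 462 sides, 23 had no control peak and 72 had no shHMGA1 peak, while 182 had exactly 1 control peak and also 182 exactly 1 shHMGA1 peak. At least 4 peaks were found on 108 sides in the control list and on 76 in the shHMGA1 list, and at least 10 on 10 and 5 sides. The fullest sides had 16 control and 15 shHMGA1 peaks, on 7q11.21 near the centromere. Over both sides of 1 interval, the median was 4 control peaks (range 0 to 20) and 3 shHMGA1 peaks (range 0 to 17). The intervals on 19p13.2 (564 kb) and 5q13.1 (573 kb) ended in peak-rich neighbourhoods, with 19 and 18 control and 17 and 17 shHMGA1 flank peaks.

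Relative to the control list, the shHMGA1 list had fewer peaks beside the intervals than over whole chromosomes. The peaks that bound the intervals entered the choice of the intervals, so the ratio was taken first without them. The flanks then had 721 peaks of the control list and 572 of the shHMGA1 list, which is a ratio of 0.793 (95% interval 0.711 to 0.885), and the ratio over chromosomes 1 to 22 was 0.887. Weighted to the chromosomes of the flanks, the whole-chromosome ratio was 0.882, which the interval of the flank ratio holds. With the bounding peaks the flank ratio was 0.779. For comparison, 1-Mb windows with 10 to 20, 20 to 30, 30 to 40 and 40 to 60 merged peaks had ratios of 0.887, 0.888, 0.886 and 0.886. The part of peak density in the flank ratio was not tested.

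By chromosome, without the bounding peaks, 17 had at least 20 control flank peaks, and in 13 of these the flank ratio was below that of the whole chromosome. Chromosome 20 had 49 control and 28 shHMGA1 flank peaks, and chromosome 14 had 28 and 18. Chromosome 3 went the other way, with 51 and 52. Leaving out 1 chromosome at a time moved the ratio between 0.776 (without chromosome 3) and 0.810 (without chromosome 20). By interval, with the bounding peaks counted, 140 had fewer shHMGA1 than control flank peaks, 58 had equal numbers and 33 had more. This split is a description only, since it holds the bounding peaks that entered the choice of the intervals. Of the 462 bounding sides, 148 were control-only and 46 shHMGA1-only. No split by interval without these peaks is given here. The interval of the ratio covers counting error only and treats neighbouring peaks as independent.

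Control peaks without a counterpart made up more of the flanks than of whole chromosomes. In the flanks, bounding peaks included, 67.7% of control peaks were shared (95% Wilson interval 64.9 to 70.4), meaning an overlap of at least 1 bp with a peak of the other list, against 75.1% over chromosomes 1 to 22. Of shHMGA1 flank peaks, 86.7% (84.3 to 88.8) were shared, against 85.1%. That left 365 control-only and 117 shHMGA1-only peaks in the flanks. Of these unshared peaks, 75.7% (71.7 to 79.3) were control-only, against 65.3% over chromosomes 1 to 22. These values are descriptions only, since they hold the bounding peaks that entered the choice of the intervals. All Wilson intervals here cover counting error only and treat neighbouring peaks as independent. The whole-chromosome shares are not weighted to the chromosomes of the flanks. Without the bounding peaks, 69.3% of control (65.9 to 72.6) and 87.4% of shHMGA1 (84.4 to 89.9) flank peaks were shared, and 221 control-only and 72 shHMGA1-only peaks remained, 75.4% (70.19 to 80.01) of them control-only. In 1-Mb windows with 10 to 20 merged peaks, 72.9% of control peaks were shared. With 20 to 30, 30 to 40 and 40 to 60 merged peaks, the shared part was 75.8%, 76.8% and 76.1%. The part of peak density in the shared part of the flanks was not tested.

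Flank peaks, here with the bounding peaks, were narrow, and width moved together with sharing. Their median width was 353 bp in the control list and 379 bp in the shHMGA1 list, against 527 and 540 bp over chromosomes 1 to 22. Their summit significance was not lower: the median summit value, the authors' -log10 p, was 5.26 and 5.36, against 5.25 and 5.22. Without the bounding peaks, the median width was 378 bp in the control list and 395.5 bp in the shHMGA1 list, and the median summit value was 5.38 and 5.51. The width classes that follow include the bounding peaks. Of control flank peaks, 69.9% were narrower than the list median. Among these, 58.2% (54.7 to 61.5) were shared, against 61.6% of equally narrow control peaks on chromosomes 1 to 22, and among the wider ones 90.0% (86.4 to 92.8) against 88.7%. At the rates that each width class has on chromosomes 1 to 22, the widths of the control flank peaks would give 69.7% shared. The share found was 67.7%, and that of the list was 75.1%. In the shHMGA1 list the shared part was higher in the flanks within both classes, 82.0% (78.8 to 84.9) against 76.5% of narrow peaks and 96.8% (94.0 to 98.3) against 93.7% of wide ones. For shHMGA1 flank peaks the widths would give 81.9%, where 86.7% was found and the list had 85.1%. The part of width in the shared shares and in the lower ratio was not tested.

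Peak density was higher farther from the interval edge, once past the bounding peaks. The first 10 kb had 119 control and 91.1 shHMGA1 peaks per Mb, a value that holds the bounding peaks by construction. From 10 to 25 kb there were 15.3 and 11.6 per Mb, from 50 to 100 kb 16.9 and 13.4, from 100 to 200 kb 21.6 and 17.3, and from 400 to 500 kb 27.0 and 22.2. Even at 400 to 500 kb, both densities were below those of chromosomes 1 to 22. The ratio of the lists was 0.758 at 10 to 25 kb, 0.802 at 100 to 200 kb, 0.838 at 300 to 400 kb and 0.820 at 400 to 500 kb. The shared part of control peaks went from 65.3% in the first 10 kb to 74.4% at 400 to 500 kb.

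**Figure D4:**
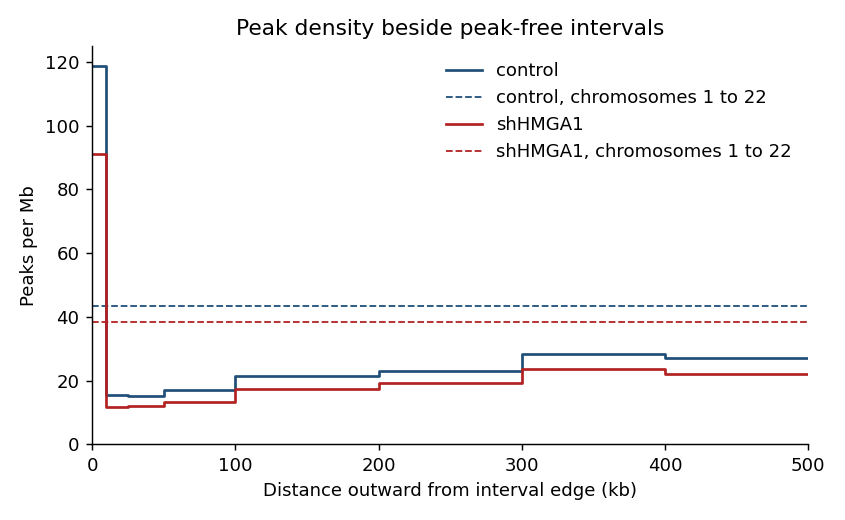
Peaks per Mb (vertical axis) by distance outward from the interval edge in kb (horizontal axis), for the control and shHMGA1 lists (solid steps), with the density over chromosomes 1 to 22 as dashed lines. Beyond the first 10 kb, which hold the bounding peaks, both lists stay below their dashed line, with 27.0 control and 22.2 shHMGA1 peaks per Mb at 400 to 500 kb.

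The peaks that bound the intervals were mostly small. Of the 462 bounding sides, 268 (58.0%) ended at a merged peak made from both lists, 148 (32.03%) at a control-only peak and 46 (9.96%) at an shHMGA1-only peak. Over all merged peaks of chromosomes 1 to 22 the shares were 65.3%, 22.7% and 12.05%. The bounding peaks had a median width of 297 bp in the control list and 332 bp in the shHMGA1 list. Of 410 control bounding peaks, 16 (3.90%) were in the top 10% of their list by summit -log10 p, and of 309 in the shHMGA1 list, 14 (4.53%).

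A few intervals ended at large peaks. The largest by area, the authors' signal column, closed the 479-kb interval of 16q12.2 (chr16:54961947-54965630), with an area of 20531 and rank 308 in the control list and 18529 and rank 351 in the shHMGA1 list. The next 4 were on 7q11.22 (chr7:69061961-69063932), 22q12.1 (chr22:28065201-28067263), 17p12 (chr17:12920644-12922102) and 9q21.33 (chr9:89561840-89563667). Their areas in the control list were 7533, 3929, 6012 and 5880, and in the shHMGA1 list 5563, 6403, 5666 and 5393. All 5 were peaks of both lists. By area, the other 4 ranked between 4587 and 11870 in the control list and between 5463 and 7136 in the shHMGA1 list.

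Some intervals lay end to end, divided by a single small peak. Of 450 distinct bounding merged peaks, 12 bounded an interval on both sides, of which 7 were in both lists, 4 were control-only and 1 was shHMGA1-only. In all, 20 pairs of intervals lay within 100 kb of each other. On 16q21, 2 intervals spanned 2.11 Mb (chr16:62341848-64449802) around an island of 4 merged peaks in 73.5 kb. On 14q32.2, 1.97 Mb (chr14:97757674-99727357) was divided by 1 control-only peak of 189 bp with a summit -log10 p of 4.49. Over 16q12.1 and 16q12.2, 1.91 Mb (chr16:51038200-52946592) was divided by a peak of 392 bp that both lists held, with summit values of 8.06 in the control list and 6.69 in the shHMGA1 list. On 22q13.31 and 22q13.32, a merged peak of 922 bp, also in both lists, divided 1.77 Mb. On 7q11.22, 2 control-only peaks in 19.2 kb divided 1.85 Mb (chr7:70294411-72147781).

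Taken from each list alone, long intervals were more numerous in shHMGA1. The control list alone gave 271 (0.219% of its spaces), of 166.3 Mb in all, and the shHMGA1 list alone gave 334 (0.304%), of 210.3 Mb. The shHMGA1 list has fewer peaks, 110930 against 125104 on chromosomes 1 to 22. When the control list was reduced to its 110930 most significant peaks, it gave 297 intervals of 182.2 Mb, between these numbers. The longest was 1.75 Mb in the control list and 2.01 Mb in the shHMGA1 list, the latter on 14q32.2. Among the 231 merged-list intervals, 81 were longer by at least 50 kb in the shHMGA1 list alone and 32 in the control list alone.

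The peaks that broke the intervals of the other list had low summit values, and weaker peaks were less often shared over whole chromosomes too. On chromosomes 1 to 22, 54.2% of control peaks below the list median summit value were shared, against 96.1% at or above it. In the shHMGA1 list these shares were 71.8% and 98.4%. The list medians were 5.25 and 5.22, and no median over all unshared peaks is given here. Wholly inside the shHMGA1-alone intervals lay 408 control-only peaks, 1.31% of the 31095 on chromosomes 1 to 22, in 221 of the 334 intervals, with a median summit -log10 p of 4.41. Inside the control-alone intervals lay 114 shHMGA1-only peaks, 0.690% of 16517, in 84 of the 271, with a median of 4.34. On 20q13.2, 3 neighbouring intervals of 437, 434 and 1067 kb were a single stretch of 1962 kb in the shHMGA1 list, since the peaks between them were control-only. On 7q11.22 the intervals of 904 and 930 kb likewise formed a stretch of 1920 kb in that list, and on 17p12 those of 524 and 471 kb formed one of 996 kb. The opposite was seen on 7q11.21 near the centromere, where an shHMGA1-only peak of 255 bp divided a stretch of 1291 kb of the control list into 747 and 543 kb. For 6 intervals, among them 20p12.1 (1061 kb), 18p11.31 to 18p11.23 (636 kb) and 12q24.21 (547 kb), the flanks held no shHMGA1 peak, and in each of these 3 they held 2 control peaks. In the reverse direction, the flanks of the 477-kb interval of 7q36.3 held 3 shHMGA1 peaks and no control peak.

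**Figure D5:**
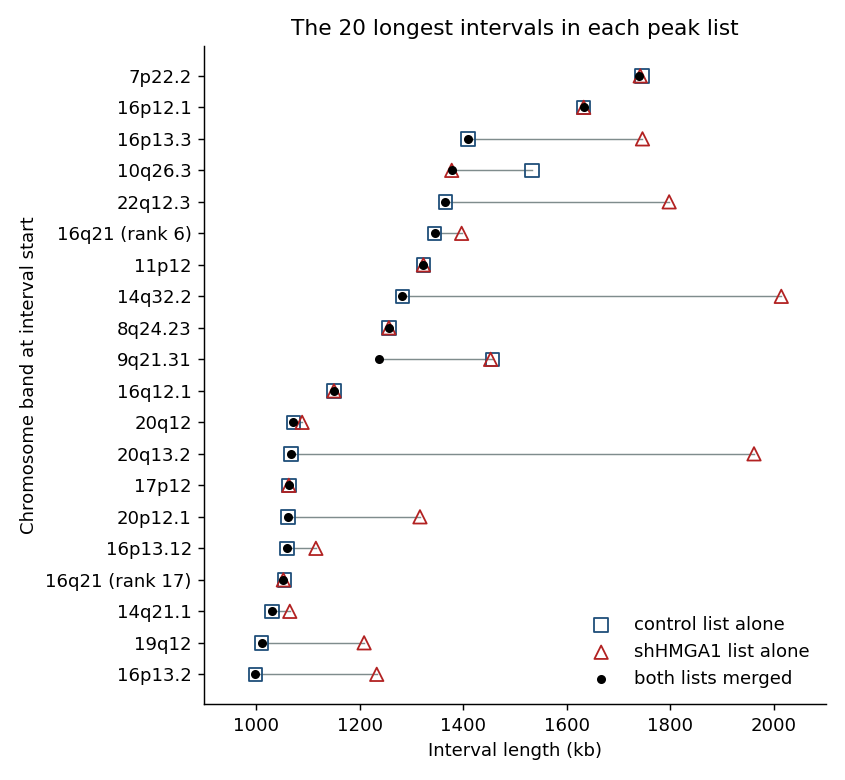
Length in kb (horizontal axis) of the 20 longest intervals (vertical axis, by band at the interval start, with the rank by length where a band recurs) with both lists merged (black points), in the control list alone (squares) and in the shHMGA1 list alone (triangles). In the shHMGA1 list alone 10 of the 20 are longer by at least 50 kb, in the control list alone 2, and 1 of these is longer in both.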

How the data were processed

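ATAC-seq of DAMI cells was deposited as 1 peak list in narrowPeak format per group (3 samples each). Per the submitters' processing notes, the authors called peaks with Genrich on hg19. Settings, aligner, filters and the pooling of samples were not given in the sources used here. Read depth is unknown. In the deposited lists, positions are bases, the signal column is an area under the significance curve, the score is derived from it, and the summit value is a −log10 p without adjustment. The score was not used.

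Peaks of both lists were merged where they overlapped. Chromosome bands and stains came from the hg19 band table of the R package circlize. Flank peaks were counted by summit within 100 kb, and peaks were called shared at an overlap of at least 1 bp. Shares carry 95% Wilson intervals. The interval of the ratio comes from the Wilson interval of the shHMGA1 part of the flank peaks. No tests were made. The counting was tested on simulated lists and against bedtools 2.31.1. Scripts ran in Python 3.11.15 (matplotlib 3.10.9, scipy 1.17.1, numpy 2.4.6, pandas 2.3.3).

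Named sites were the 10 longest intervals, the bounding peaks with the 5 largest areas, and listed genes by band. A RefSeq symbol table of another build served only to check the chromosome of 189 listed genes, of which 189 matched. The intervals and gene lists were chosen with earlier results of these data known. The alternatives were other minimum lengths, each list alone, stricter peaks, other flanks and overlaps, and bands left out.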

Additional observations from a re-analysis of the deposited data

How the results depend on the processing

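The number of intervals followed the minimum length, with 469 at 300 kb, 121 at 500 kb and 19 at 1 Mb. It rose when fewer peaks were kept. Peaks at or above the joined median summit −log10 p of 5.23 gave 525 intervals of 332.2 Mb, and the 56305 most significant peaks of each list gave 550. With a minimum of 1 Mb, 76.6% of interval length was in Giemsa-positive bands, against 61.9% as reported. With a reciprocal overlap of 50%, 60.1% of control and 77.2% of shHMGA1 flank peaks were shared. The flank ratio, 0.779 with the bounding peaks and 0.793 without them, lay between 0.772 and 0.842 in the alternatives run for it, the highest with peaks at or above the joined median. The whole-chromosome ratio of those stricter peaks is not given here, and the 0.887 of all peaks is not its counterpart.

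Leaving out variable bands gave 227 intervals. Leaving out intervals within 5 Mb of a centromeric band gave 208, of 127.4 Mb, with a flank ratio of 0.780. That setting, the scaled minimum and the control list at the number of shHMGA1 peaks were chosen after seeing the data. Long genes by span were not run, since no hg19 annotation was used. No paired analysis was possible because the deposited lists carry no replicate numbers or single samples, and no replicate could be left out for the same reason.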
